A study of Caenorhabditis elegans with 8 samples.

Results

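In the nematode Caenorhabditis elegans, 9 listed targets of the ERGO-1 small RNA pathway share their clone with another listed target, and the small RNAs against them are described here. A clone is the cloned stretch of genome whose name opens the gene ID, so that genes of the same clone lie close together. Clone E01G4 holds E01G4.5 and E01G4.7, clone F55C9 holds F55C9.3 and F55C9.5, and clone W04B5 holds W04B5.1 with W04B5.2. Clone ZK402 holds 3 of them, ZK402.2 and ZK402.3 as well as ZK402.5. They were chosen by gene ID from the 1937 genes of the deposited gene table, on 4 clones, and all 9 were present. A further 0 genes of these 4 clones were analysed. Whether the genes of a clone are copies of each other in sequence was not analysed here, so they are called neighbouring targets.

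The series holds 8 small RNA libraries of whole young adult animals, 2 for each combination of genotype and food. The comparison used the 4 libraries from OP50, the usual laboratory food, for which counts per gene were analysed. The 2 rde-12(hj41) libraries came from animals that carry the hj41 allele of rde-12, which encodes a helicase of the DEAD-box family with a role in RNA interference. The 2 N2 libraries came from the standard wild-type strain. All were grown from synchronised first-stage larvae for 50 h at 20 °C, and RNA of 20 to 26 nt was sequenced. The labels call the samples of a genotype biological samples. The adjusted p-values rest on the spread between such samples, which with 2 libraries a genotype is largely borrowed across genes or gene pairs. The gene table summed to 5563151 and 4354715 counts in the rde-12 libraries and to 4270098 and 4382256 counts in the N2 libraries. The table is a selection of genes, so these sums are not whole-library depths. Counts for rde-12 itself were not analysed here, so the mutation was not checked.

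ERGO-1 is an Argonaute protein. It binds primary small RNAs made from double-stranded RNA by Dicer with an RNA-dependent RNA polymerase, and it leads to the making of many secondary small RNAs on the target transcript, which other Argonautes then carry. RDE-12 is known for its part in this amplification step. Known targets of the pathway in worms include many duplicated genes and pseudogenes. The counts analysed here do not separate primary from secondary small RNAs.

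The annotation, Ensembl release 115 on assembly WBcel235, was used for names, gene types, neighbours and lengths. No genome positions are given, since the sources used here name no build for the counts. E01G4.7, W04B5.1, W04B5.2 and ZK402.3 are annotated as pseudogenes, and the other 5 as protein-coding genes. That is 44.4% pseudogenes, against 4.49% among the 1895 tested genes with an annotation, a description of the members that was not tested. E01G4.5 and E01G4.7, on chromosome II, lie on the same strand with 0 annotated genes between them. The same holds for W04B5.2 and W04B5.1 on chromosome III. F55C9.3 and F55C9.5, on chromosome V, lie on the same strand with 1 gene between them, the F-box gene fbxb-57, which was not analysed here. On chromosome X, ZK402.3 lies between the other 2 targets of its clone. It shares its strand with ZK402.2, while ZK402.5 lies on the other strand. W04B5.1 overlaps a protein-coding gene on its own strand, W04B5.8, and F55C9.5 overlaps a pseudogene on the other strand, F55C9.12. Neither overlapping gene was analysed here. The sources used here do not say how overlapping genes, strands or reads with several matches were treated, so small RNAs of these 2 genes may include those of the overlapping gene.

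Small RNAs against all 9 neighbouring targets were scarcer in rde-12 animals than in wild type, and 7 of the 9 fell more than 4-fold. The losses ran from 3.12-fold at E01G4.7 to 16.4-fold at W04B5.2, with a median log2 change of −2.93. With edgeR's quasi-likelihood test over 1931 genes and a threshold of 0.05 on the Benjamini-Hochberg adjusted p, all 9 were called lower and 0 higher. Over all genes tested, 13.9% were called lower and 13.8% higher, and the median log2 change was −0.02. A called loss of more than 4-fold was met by 1.81% of all genes. DESeq2 also called all 9 lower, against 8.13% of all genes. Ordered from the largest loss, the 9 genes stood at places 6 to 43 of 1931. Both rde-12 libraries lay below both N2 libraries for all 9, as they did for 33.4% of all genes. The 9 genes were chosen with earlier results of these data known, so that their shared direction is not independent evidence about the pathway.

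**Figure D1:**
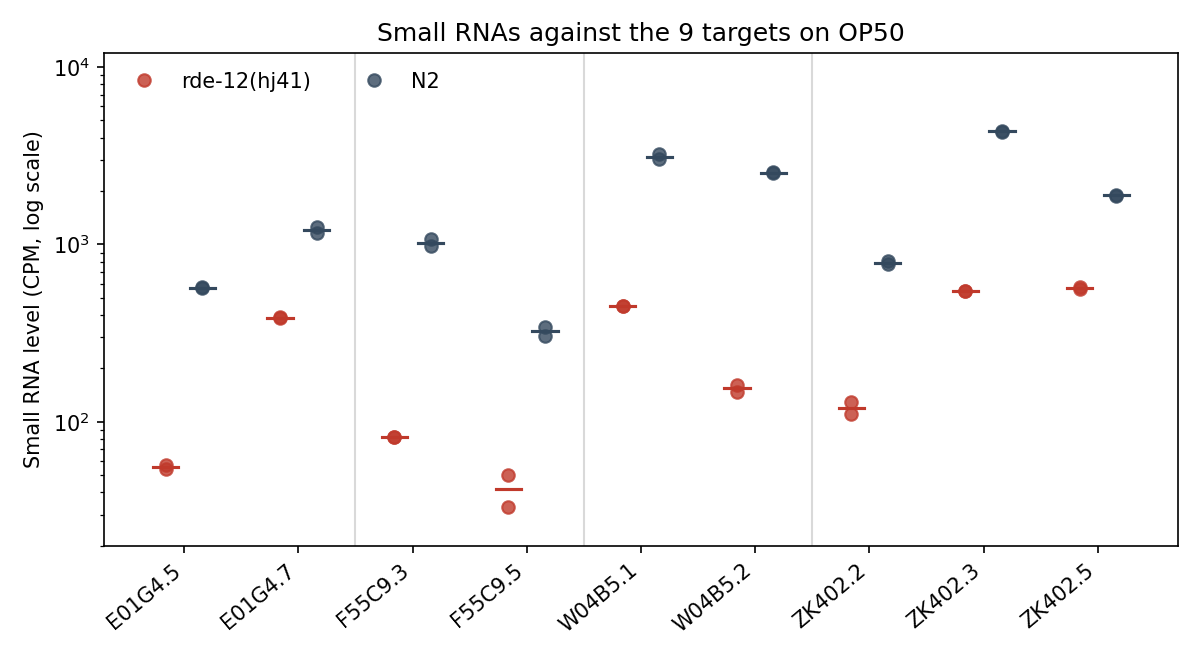
Small RNA level of each neighbouring target in each OP50 library, in CPM (counts relative to library size, log scale), with rde-12(hj41) left of N2; points are libraries, short lines are means of 2 libraries, and grey lines separate clones. Both rde-12 points lie below both N2 points for all 9 genes, as for 33.4% of all genes tested. On this log scale the widest gap between libraries of the same genotype is at F55C9.5 in rde-12.

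On clone W04B5, both targets are annotated pseudogenes. W04B5.2 had 162 and 147 CPM in the rde-12 libraries, against 2562 and 2525 CPM in the N2 libraries. CPM are counts relative to the library's sum over the tested genes, with TMM factors to adjust for differences in library make-up. The groups lay far apart, and W04B5.2 showed the largest loss of the 9 genes, with a log2 change of −4.04 ± 0.0688 (SE; edgeR adjusted p = 1.44e-16). What remained in rde-12 was 6.09% of the wild-type level. W04B5.1 had 451 and 452 CPM in the rde-12 libraries, against 3218 and 3031 CPM in the N2 libraries. Its loss was 6.91-fold (log2 change −2.79 ± 0.0617, edgeR adjusted p = 1.93e-15), and the 2 rde-12 libraries were nearly equal.

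On clone F55C9, both targets are annotated protein-coding genes. F55C9.3 had 82.2 and 82.0 CPM in the rde-12 libraries, against 1070 and 979 CPM in the N2 libraries. It fell 12.5-fold (log2 change −3.64 ± 0.0727, edgeR adjusted p = 7.24e-16), the second-largest loss among the 9. F55C9.5 had 49.9 and 33.3 CPM in the rde-12 libraries, against 342 and 305 CPM in the N2 libraries. It was the least abundant of the 9 in CPM in both genotypes, and in proportion to the mean its rde-12 libraries stood farther apart than those of any other member. They held 15.4% and 10.3% of the mean wild-type level. Its loss was 7.65-fold, with the largest standard error of the 9 (log2 change −2.93 ± 0.114, edgeR adjusted p = 4.32e-12). Leaving out 1 library at a time moved this log2 change between −3.27 and −2.69.

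On clone E01G4, the protein-coding E01G4.5 and the pseudogene E01G4.7 fell by different amounts. E01G4.5 had 57.2 and 54.1 CPM in the rde-12 libraries, against 569 and 573 CPM in the N2 libraries. Its loss was 10.2-fold (log2 change −3.36 ± 0.0702, edgeR adjusted p = 1.06e-15). E01G4.7 had 388 and 385 CPM in the rde-12 libraries, against 1250 and 1163 CPM in the N2 libraries. For both genes the rde-12 libraries lay below both N2 libraries, as they did for 33.4% of all genes. E01G4.7 kept 32.0% of the wild-type level, the most of the 9 (log2 change −1.64 ± 0.0598, edgeR adjusted p = 1.82e-12).

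On clone ZK402, the pseudogene ZK402.3 held the most small RNAs of the 9 in wild type. ZK402.3 had 548 and 543 CPM in the rde-12 libraries, against 4331 and 4364 CPM in the N2 libraries. It fell 7.97-fold (log2 change −2.99 ± 0.0604, edgeR adjusted p = 7.24e-16). ZK402.2, a protein-coding gene with the shortest annotated exon length of the 9, had 129 and 111 CPM in the rde-12 libraries, against 803 and 772 CPM in the N2 libraries. It fell 6.53-fold (log2 change −2.71 ± 0.0731, edgeR adjusted p = 3.20e-14). ZK402.5, a protein-coding gene on the other strand, had 575 and 559 CPM in the rde-12 libraries, against 1905 and 1888 CPM in the N2 libraries. Its loss was 3.34-fold, and 29.9% of the wild-type level remained (log2 change −1.74 ± 0.0567, edgeR adjusted p = 3.87e-13). In rde-12, ZK402.5 thus had the highest CPM of the 9, just above ZK402.3.

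A test against a change of 4-fold, added once the data had been seen, separated the members with the deepest losses. With edgeR, 7 of the 9 had lost significantly more than 4-fold, against 1.5% of all genes, with adjusted p between 7.83e-14 at W04B5.2 and 6.28e-06 at F55C9.5. E01G4.7 and ZK402.5, whose losses were below 4-fold, did not pass it. By annotated type, the log2 changes ran from −4.04 to −1.64 in the 4 pseudogenes, with a median of −2.89. In the 5 protein-coding members they ran from −3.64 to −1.74, with a median of −2.93. The ranges of the 2 types overlapped, and each type held 1 of the 2 smallest losses. Of all tested pseudogenes, 24.7% were called lower, and of all tested protein-coding genes 13.2%. Both shares include the members. The median log2 change was −0.00156 over these pseudogenes and −0.0220 over these protein-coding genes, and the types were not tested against each other.

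Levels of different genes were compared per length, as CPM over the whole table per kb of annotated exon. Exon lengths of the 9 genes ran from 330 nt at ZK402.2 to 2501 nt at F55C9.5, where exons of 5 transcripts were merged. Lengths were found for 1901 of the 1937 genes. In wild type 7 of the 9 stood at places 25 to 168 of 1901, ordered from the highest level per length, while E01G4.5 was at place 344 and F55C9.5 at place 786. ZK402.3 had 5082 ± 61.0 CPM per kb (SD, n = 2), and W04B5.1 had 4319 ± 155. W04B5.2 followed with 2983 ± 11.56, ZK402.2 with 2365 ± 51.3 and F55C9.3 with 1640 ± 92.4 CPM per kb. E01G4.7 had 1200 ± 53.5 and ZK402.5 had 1115 ± 0.0182, followed by E01G4.5 with 415 ± 5.09. F55C9.5 was lowest with 128 ± 9.41 CPM per kb, against a median of 92.9 over all genes with a length. The wild-type libraries of neighbours in this order did not overlap, and the gap between E01G4.7 and ZK402.5 was the narrowest.

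In rde-12 the order per length was partly different. ZK402.3 had 649 ± 13.3 CPM per kb (SD, n = 2), place 245 of 1901, and W04B5.1 had 636 ± 17.7, place 251. The libraries of these 2 genes overlapped, so their levels could not be told apart. E01G4.7 came next with 391 ± 7.89, then ZK402.2 with 367 ± 28.8 and ZK402.5 with 339 ± 1.96 CPM per kb. The libraries of E01G4.7 and ZK402.2 overlapped, and ZK402.2 exceeded ZK402.5 by less than its own SD. W04B5.2 had 184 ± 8.23, F55C9.3 had 134 ± 3.25, E01G4.5 had 41.1 ± 0.544 and F55C9.5 had 16.7 ± 4.30 CPM per kb. The median over all genes was 88.4 CPM per kb, and E01G4.5 and F55C9.5 lay below it.

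**Figure D2:**
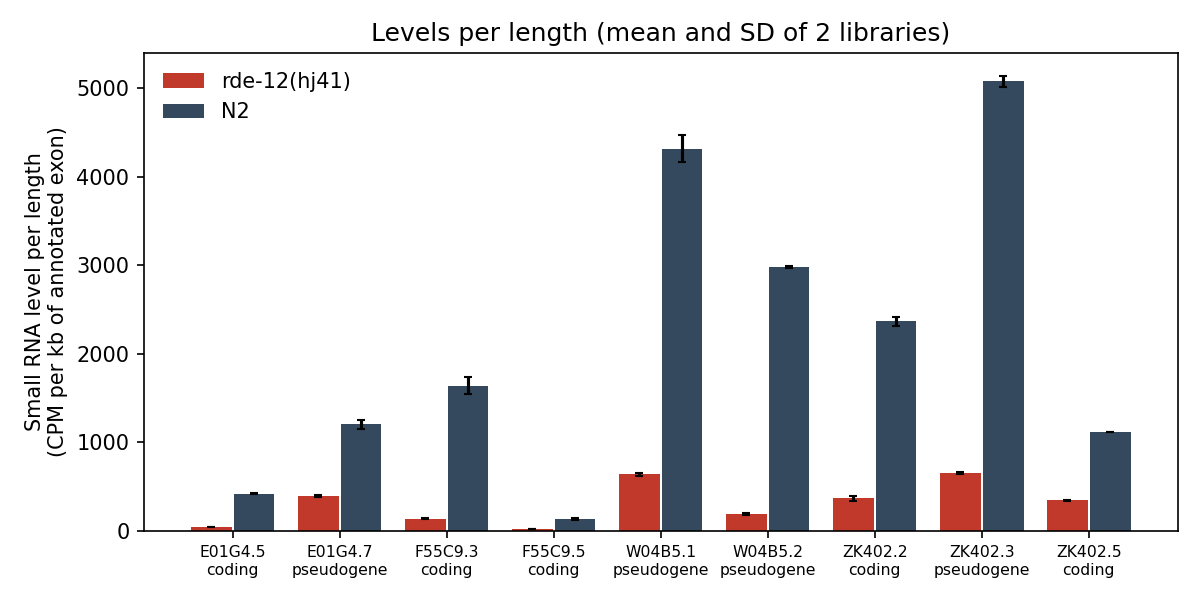
Small RNA level per length, in CPM per kb of annotated exon, for the 9 neighbouring targets with their annotated type; bars are means and whiskers SD of 2 libraries, with rde-12(hj41) left of N2. In N2 the levels run from 128 at F55C9.5 to 5082 at ZK402.3, and in rde-12 from 16.7 to 649.

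The next question was whether neighbouring targets lost small RNAs to the same extent. Ratios of 2 counts from the same library need no scaling between libraries, so they were compared for every pair of tested genes with the same clone name, 1045 pairs on 430 clones. The test was limma on log2 ratios, with Benjamini-Hochberg adjustment over all 1045 pairs. Of the 6 pairs among the neighbouring targets 5 had a changed ratio, against 23.8% of all pairs. The median absolute log2 difference was 1.11 over the 6 pairs and 0.17 over all pairs. Pairs of ZK402 share genes, so the 6 are not independent. The members were also chosen with earlier results known and all fell, while over all genes 13.9% were called lower and 13.8% higher. Strongly changed genes have more room to differ, so the contrast with all pairs is no evidence about neighbouring targets. Two-sided exact permutation tests on single pairs each reached p = 0.33, which 2 libraries against 2 cannot undercut.

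E01G4 showed the widest gap. The ratio of E01G4.5 to E01G4.7 was 0.148 and 0.141 in the rde-12 libraries, against 0.455 and 0.493 in the N2 libraries. The log2 difference was −1.72 ± 0.0818 (SE; limma adjusted p = 1.90e-05), so that the ratio was 3.29-fold lower in rde-12. It held place 30 of 1045 by absolute size. E01G4.5 made up 12.6% ± 0.367 of the counts of both genes in rde-12 and 32.1% ± 1.24 in N2 (SD, n = 2).

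On W04B5 the ratio of W04B5.1 to W04B5.2 was 2.78 and 3.08 in the rde-12 libraries, against 1.26 and 1.20 in the N2 libraries. It was 2.38-fold higher in rde-12 (log2 difference 1.25 ± 0.0611, limma adjusted p = 2.10e-05). The 2 pseudogenes held nearly equal shares in wild type, with W04B5.1 at 55.1% ± 0.790, while W04B5.1 held 74.5% ± 1.38 in rde-12. Their libraries did not overlap.

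On ZK402, ZK402.5, the gene on the other strand, held a larger share of the clone's counts in rde-12 than in N2. The ratio of ZK402.3 to ZK402.5 was 0.952 and 0.972 in the rde-12 libraries, against 2.27 and 2.31 in the N2 libraries. This was the most precise of the 6 differences (log2 difference −1.25 ± 0.0322, limma adjusted p = 1.29e-06). The ratio of ZK402.2 to ZK402.5 was 0.224 and 0.199 in the rde-12 libraries, against 0.422 and 0.409 in the N2 libraries (log2 difference −0.97 ± 0.0773, limma adjusted p = 2.31e-04). ZK402.5 made up 46.0% ± 0.0775 of the clone's counts in rde-12 and 27.0% ± 0.135 in N2. A link of the differences with strand was not tested. On the other clones, pairs that share a strand had log2 differences of −1.72 (E01G4), 1.25 (W04B5) and −0.65 (F55C9). ZK402.2 and ZK402.3, which also share a strand, had the smallest log2 difference of the 6 pairs. Their ratio was 0.236 and 0.205 in the rde-12 libraries, against 0.185 and 0.177 in the N2 libraries, and did not pass the test (log2 difference 0.28 ± 0.0841, limma adjusted p = 0.0583). It did pass with the replicate number as a block (adjusted p = 0.0144), with adjacent pairs only (0.0306), without rde-12 replicate 2 (0.0175) and without N2 replicate 1 (0.0424).

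On F55C9 the difference was the least certain. The ratio of F55C9.3 to F55C9.5 was 1.65 and 2.46 in the rde-12 libraries, against 3.13 and 3.21 in the N2 libraries. In proportion to the mean, the rde-12 libraries differed more from each other than those of any other pair, although the genotypes did not overlap. The log2 difference was −0.65 ± 0.182 (limma adjusted p = 0.0450). The call ended without rde-12 replicate 1, where the log2 difference was −0.37 (adjusted p = 0.0578), and without a trend of the spread with level (adjusted p = 0.0991). Against a 1.5-fold change of the ratio, a test added once the data had been seen, 4 of the 6 pairs passed, against 5.74% of all pairs. The 2 that did not were F55C9.3 over F55C9.5 and ZK402.2 over ZK402.3. The limit given above for the contrast with all pairs holds here too.

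**Figure D3:**
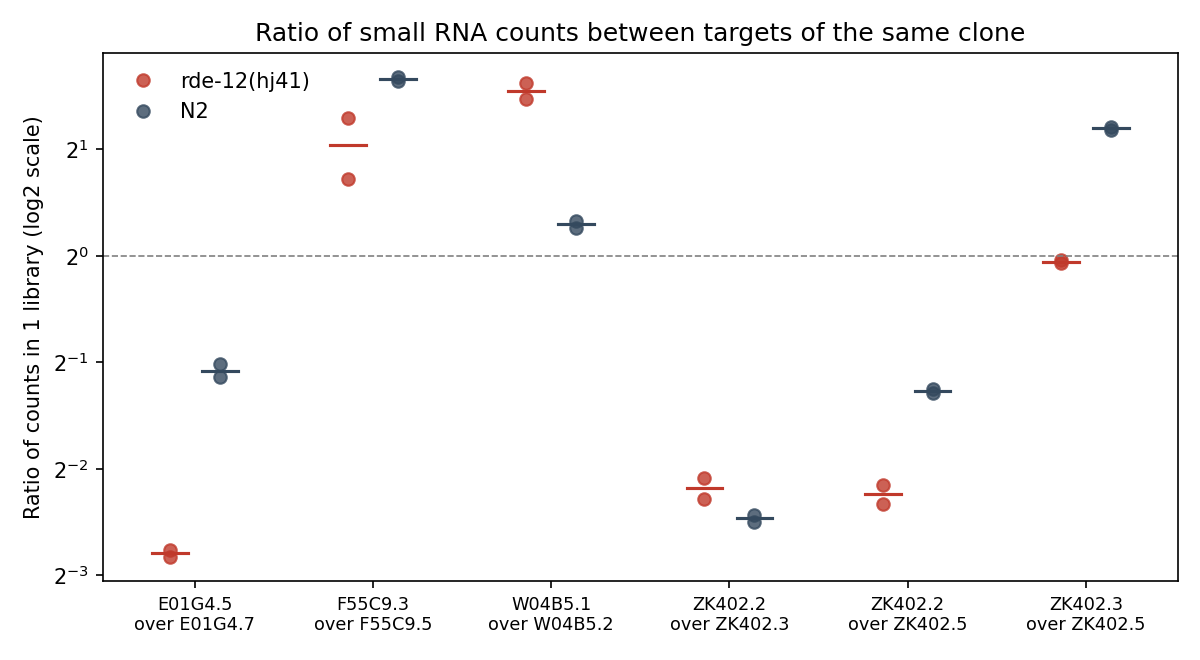
Ratio of small RNA counts between 2 neighbouring targets within each OP50 library (log2 scale), with rde-12(hj41) left of N2; points are libraries, short lines are means, and the dashed line marks equal counts. The genotypes lie apart by 3.29-fold at E01G4 and come closest at ZK402.2 over ZK402.3.

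The sources used here do not state where small RNAs that match more than 1 gene of a clone were counted. If each was counted once, the sum over a clone does not depend on how they were divided within it. If each was counted in full at every match, the sum holds it more than once and does depend on the rule. Outside the members, AC8.3 and AC8.10 of clone AC8 had the same log2 change and standard error (0.0479 ± 0.0638). The same held for AC8.4 with AC8.11 (0.0720 ± 0.0561) and for AC8.7 with AC8.12 (0.368 ± 0.0552). Which counting rule gave these equal values was not tested. The counts of each clone's targets were therefore also summed before the test, an alternative added once the data had been seen. All 4 sums were called lower in rde-12 with edgeR's test, where 13.9% of all single genes were. Each summed gene had itself been called lower, so the fall of the sums was fixed in advance and adds no support. The E01G4 sum was 445 and 439 CPM in the rde-12 libraries, against 1819 and 1736 CPM in the N2 libraries, 4.02-fold lower (log2 change −2.01 ± 0.0594, adjusted p = 4.20e-15). The ZK402 sum was 1252 and 1213 CPM in the rde-12 libraries, against 7042 and 7024 CPM in the N2 libraries, 5.71-fold lower (−2.51 ± 0.0620, adjusted p = 2.78e-16). The W04B5 sum, 614 and 599 CPM in rde-12 against 5783 and 5556 CPM in N2, was 9.35-fold lower (−3.22 ± 0.0641, adjusted p = 1.40e-17). The F55C9 sum, 132.2 and 115.2 CPM in rde-12 against 1412 and 1284 CPM in N2, was 10.9-fold lower (−3.44 ± 0.0764, adjusted p = 5.54e-17). The clones thus kept different fractions of their small RNAs also when their targets were summed. Differences between clones were not tested.

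Together the 9 genes held 0.242% and 0.243% of the table's counts in the rde-12 libraries, against 1.58% and 1.55% in the N2 libraries. The rde-12 share was thus 6.46-fold lower (two-sided exact permutation p = 0.33, the smallest possible with 2 libraries a group). Within the 9, the mean share of E01G4.7 was 16.1% of their counts in rde-12 and 7.62% in N2. That of W04B5.2 was 6.42% in rde-12 and 16.1% in N2. ZK402.2 held 4.99% in rde-12 and 4.98% in N2, in step with the sum.

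A second list held 21 other ERGO-1 targets, each with no listed target beside it on its clone. It was written from general knowledge, with earlier results of these data known, and was not checked against published targets. Of these 18 were tested, 16 were called lower and 0 higher by edgeR, where 13.9% and 13.8% of all genes were. The median log2 change was −1.59, against −2.93 for the 9 neighbouring targets and −0.02 for all genes. Of the 18, 7 were called with a loss of more than 4-fold, against 1.81% of all genes. Together the 18 held 0.620% ± 0.0132 of the table's counts in rde-12 and 2.76% ± 0.0622 in N2 (SD, n = 2). The largest losses were at T08B6.2 (log2 change −5.41, edgeR adjusted p = 2.65e-16) and K02E2.6 (−4.22, adjusted p = 1.44e-16), both beyond that of W04B5.2. The 2 least changed were T05E12.8, with 6.49 ± 0.327 CPM in rde-12 and 7.11 ± 0.317 CPM in N2 (log2 change −0.13, edgeR adjusted p = 0.747), and C18D4.6 (0.06, adjusted p = 0.482). The 2 lists were not tested against each other, since genes are not replicates, and their ranges overlapped.

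**Figure D4:**
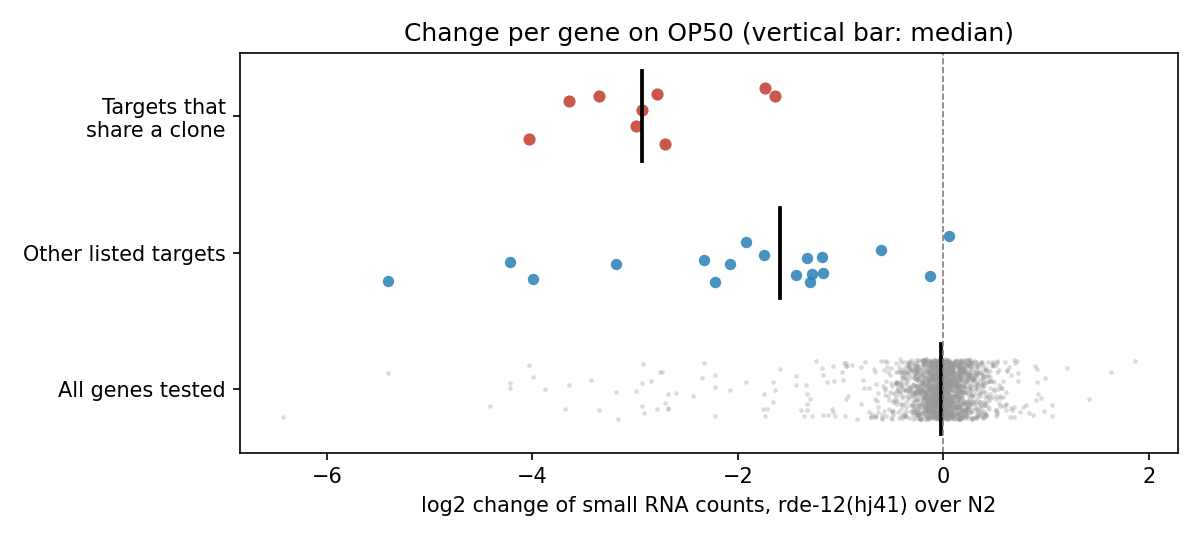
Log2 change of small RNA counts, rde-12(hj41) over N2, for the 9 neighbouring targets (top), the 18 other listed targets and all 1931 genes tested; each point is a gene, spread vertically at random, and bars mark medians. The 9 targets lie between −4.04 and −1.64, within the range of the other listed targets, which runs from −5.41 to 0.06.

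Small RNAs also target some genes that encode factors of the pathway. Of 31 listed factors 6 were tested (eri-6, eri-7, ekl-1, nrde-1, nrde-4 and sago-2), and 0 were called by edgeR or by DESeq2, with 0 at an unadjusted p under 0.05. Over all genes edgeR called 13.9% lower and 13.8% higher, so that 0 of 6 genes is near the background and is no result about the factors. The list is not complete: eri-12 (B0001.6), outside it and picked after its value was seen, fell by 1.33 on the log2 scale (adjusted p = 1.11e-10 with edgeR). Among the 6, the 2 with the largest log2 changes were eri-7 (C41D11.7), part of a helicase needed for ERGO-1 small RNAs, and ekl-1 (F22D6.6), a Tudor-domain partner of RNA-dependent RNA polymerases. For eri-7 there were 43.02 and 41.1 CPM in the rde-12 libraries, against 37.7 and 37.4 CPM in the N2 libraries (log2 change 0.17 ± 0.113, edgeR adjusted p = 0.296). For ekl-1 there were 153 and 162 CPM in the rde-12 libraries, against 174 and 166 CPM in the N2 libraries (−0.11 ± 0.0667, edgeR adjusted p = 0.234).

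Outside the 9, the 3 genes whose levels over the 4 libraries were most like the members' median pattern were ZK380.5, chs-2 (F48A11.1) and F44E2.2. Likeness was the Euclidean distance between log2 CPM centred on each gene's mean, which was 0.149, 0.161 and 0.207 for these genes. Among the members it ran from 0.132 at ZK402.3 to 1.26 at E01G4.7, so that these 3 genes lay closer to the members' median than most members did. ZK380.5 had 383 and 393 CPM in the rde-12 libraries, against 2904 and 3036 CPM in the N2 libraries. For chs-2, which encodes a chitin synthase, there were 39.2 and 36.4 CPM in the rde-12 libraries, against 254 and 253 CPM in the N2 libraries. F44E2.2 had 164 and 181 CPM in the rde-12 libraries, against 1217 and 1265 CPM in the N2 libraries. None of the 3 is on either list of targets, and the likeness rests on 4 libraries.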

How the data were processed

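Small RNA libraries were made from gel-purified small RNA treated with TAP, an enzyme that opens triphosphate ends to adapter ligation, using the ScriptMiner kit, per the labels' protocols. The submitters' processing notes name bedtools, SAMtools and TopHat 1.4.1. The gene table that the authors deposited gives raw counts of small RNAs for each gene. Of its 1959 rows, 22 repeat another row, among them 4 for the neighbouring targets, and repeats were counted once. The sel-1 counts and the sel-1 RNAi libraries were not used here.

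Counts were fitted over all genes in R 4.3.3 with the quasi-likelihood test of edgeR 4.0.16. TMM factors lay between 0.987 and 1.03, and filterByExpr removed 6 genes and no member. The standard error of a log2 change was derived from its F statistic, as the size of the change over the root of F. Ratios within a clone were tested with limma 3.58.1 on counts plus 0.5, with a trend of the spread on level. The biological coefficient of variation was 4.06%. Counts of replicate libraries differed beyond sampling noise, with a chi-square of 4.13 per degree of freedom in rde-12 and 3.50 in N2. Both tests were checked on simulated data. DESeq2 1.42.0 and limma-voom were among the alternatives. With 2 libraries a genotype, the spread is largely borrowed across genes or pairs.

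Apart from eri-12, the AC8 genes and the genes that lie between or overlap members, genes were named by rule. The AC8 genes were picked after their values were seen. The rule covered all 9 members, other genes of their clones, the 3 most alike genes, and the 2 most and 2 least changed of the other listed targets. Of the pathway factors the 2 most changed were described, and the other 4 tested are named to complete the count. The members and lists were chosen with earlier results of these data known.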

Additional observations from a re-analysis of the deposited data

How the results depend on the processing

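All 9 neighbouring targets were called lower, and 0 higher, under each of 12 alternatives: 3 other scalings, TMM factors from genes outside the listed targets, no filter, DESeq2, limma-voom, the replicate block, and leaving out each library in turn. Over all genes, the main test called 13.9% lower and DESeq2 8.13%. That share is not given for the other alternatives, so their repeated count has no background beside it. The test against 4-fold kept 7, as E01G4.7 and ZK402.5 lost less than that, and passed 1.5% of all genes. It called 5 of the other listed targets, where 16 were called in each of the other alternatives. The number of pairs with a changed ratio was between 4 and 6 in every alternative, and 4 to 6 with a library left out. The log2 change of the summed share ran from −2.71 to −2.68 with a library left out. Same-numbered libraries did not deviate together (r = 0.03 across genes), so the numbers are not taken as pairs. With the replicate number as a block, 9 targets were called lower and 6 pairs had a changed ratio. The rde-12 libraries held 275 and 149 counts of F55C9.5, the fewest of the 9, and its log2 change had a standard error of 0.114. E01G4.5, with 315 and 242 counts in these libraries, had a standard error of 0.0702. Why the values of F55C9.5 were less precise was not tested. Which reads were shared between similar genes was not tested.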
